A study of Mus musculus with 24 samples.

Results

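Oxidative phosphorylation subunits were followed through 24 mouse libraries as 98 genes, of 30153 genes in the expression table. They were every protein-coding gene, without pseudogenes, whose symbol begins with mt-Nd, mt-Co, mt-Cytb, mt-Atp, Ndufa, Ndufb, Ndufc, Ndufs, Ndufv, Sdha to Sdhd, Uqcr, Cox4 to Cox8 or Atp5, with the Ndufaf assembly factors left out. The mitochondrial genome encodes 13 of them and nuclear chromosomes 85. Complex I had 7 mitochondrial and 38 nuclear members, complex II 4 nuclear members and no mitochondrial one, complex III 1 and 8, complex IV 3 and 18, and complex V 2 and 17. Symbols carry the families' names and not a check of the protein: Ndufa4, grouped here with complex I, is now placed in complex IV, Cox7a2l acts in joining complexes III and IV, and Atp5s is named as a coupling factor.

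The respiratory chain passes electrons from NADH (complex I) and succinate (complex II) through ubiquinone to complex III, by cytochrome c to complex IV, and so to oxygen. Complexes I, III and IV pump protons, and complex V, the ATP synthase, uses the gradient to make ATP. Core subunits in the membrane part of the pumps and of the synthase are made inside the mitochondrion from long transcripts of its own genome that are cut into messenger RNAs, while all other subunits, core ones of complexes I and III among them, are imported, so each complex except II is built from both genomes. Kidney tubules, above all the proximal tubule and the thick ascending limb, depend on this pathway to drive salt reabsorption.

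The samples were labelled kidney of C57/BL6 mice, with 4 animals in each of 6 groups per the design text. Hap-I and Hap-II mice overexpress the human angiotensin receptor type 1 in haplotype I or haplotype II and are hypertensive, per the series title. The groups were Hap-I aged + WD (western diet), Hap-I adult + WD, Hap-II adult + WD, Hap-I aged, Hap-I adult and C57 adult, which carries neither haplotype and whose label names no diet. The labels give no sex, exact age, promoter or batch, and the 4 libraries of a group were taken as separate animals. Line and diet differ together between each group on WD and C57 adult, so their parts cannot be told apart. Values are TPM (transcripts per 1e+06 transcripts), a level per transcript length scaled to a fixed total within each library, so a gene can be lower because others are higher. The read depth behind them is unknown.

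Defining markers matched the kidney label in 16 libraries and not in the other 8. Summed TPM of 6 proximal tubule markers averaged 1381 in Hap-I aged + WD, 715 in Hap-I adult + WD, 1059 in Hap-II adult + WD and 2024 in C57 adult libraries, but 2.58 and 2.42 in the libraries labelled Hap-I aged and Hap-I adult. Those 8 libraries instead held 6 neuron markers at sums of 4258 and 3714 TPM, against at most 4.07 TPM in any of the other 16. Comparisons with them set different tissue contents side by side and are given last. Among the 16, the sum of 4 thick ascending limb markers averaged 680, 459 and 884 TPM in the WD groups and 2797 TPM in C57 adult, and that of 4 adipocyte markers 10.7, 4.78 and 3.95 TPM, against 513 TPM in C57 adult (22.8 to 1113). Eif2s3y, which lies on the Y chromosome, was at 5 TPM or more in 2, 3 and 2 of 4 libraries of the WD groups and in 0 of 4 C57 adult libraries. It reached that level in 4 of 4 libraries labelled Hap-I aged and 4 of 4 labelled Hap-I adult, which thus differ from C57 adult in this gene as well. Fewer cells of a type and less RNA per cell cannot be told apart in such tissue samples, and the part of cell make-up in the results was not tested. Sex, which is not labelled, entered only as the level of Y-linked genes in an alternative fit given below.

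The 13 mitochondrial members lie on chrM between mt-Nd1 (chrM:2751-3707) and mt-Cytb (chrM:14145-15288) of GRCm38, all on the plus strand but mt-Nd6 (chrM:13552-14070). mt-Atp8 (chrM:7766-7969) and mt-Atp6 (chrM:7927-8607) overlap in a shared messenger RNA, as do mt-Nd4l (chrM:9877-10173) and mt-Nd4 (chrM:10167-11544). Chromosome 1 carries copies of 7 of them, annotated as unprocessed pseudogenes, and all 7 have rows in the table. The copies run over mt-Co1 to mt-Nd4 and differ so little that short reads can seldom tell them from the mitochondrial gene. Gm28437 held no substitution over 783 aligned bases of mt-Co3, Gm28661 none over 681 bases of mt-Co2, Gm10925 none over 678 bases of mt-Atp6 and Gm28438 only T3C over 345 bases of mt-Nd3, with positions counted from 1 at the first base of mt-Nd3 and the mitochondrial base first. The sequences that could separate the pairs are shown 5′ to 3′ from the GRCm38 genome: the start of mt-Nd3 (chrM:9459-9518, plus strand) and of Gm28438 (chr1:24613060-24613119, minus strand) with the differing base in capitals.
mt-Nd3 start: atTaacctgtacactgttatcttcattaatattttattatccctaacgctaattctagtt
Gm28438 start: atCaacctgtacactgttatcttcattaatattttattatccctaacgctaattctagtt
The ends of 3 mitochondrial genes follow, with the bases past the annotated end of the copy in capitals, each above the end of its copy: mt-Nd3 (chrM:9774-9806) and Gm28438 (chr1:24612775-24612804), mt-Co3 (chrM:9358-9390) and Gm28437 (chr1:24613189-24613220), and mt-Co2 (chrM:7664-7696) and Gm28661 (chr1:24614885-24614914).
mt-Nd3 end: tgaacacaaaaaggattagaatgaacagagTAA
Gm28438 end: tgaacacaaaaaggattagaatgaacagag
mt-Co3 end: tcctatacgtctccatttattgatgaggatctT
Gm28437 end: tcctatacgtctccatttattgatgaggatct
mt-Co2 end: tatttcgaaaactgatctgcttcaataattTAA
Gm28661 end: tatttcgaaaactgatctgcttcaataatt

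The table gave much of the RNA to these copies, and unevenly. Gm28438, the copy of mt-Nd3, held 22.03, 33.2, 59.95 and 52.2% of the summed TPM of the pair in Hap-I aged + WD libraries and 77.0, 75.2, 69.2 and 76.2% in Hap-I adult + WD libraries. It held only 1.72, 1.99, 0.488 and 0.583% in Hap-II adult + WD libraries, against 77.1, 71.3, 79.2 and 79.6% in C57 adult libraries. The copy was thus nearly empty in Hap-II adult + WD and held 69.2% or more in all 8 libraries of Hap-I adult + WD and C57 adult. Gm28437 held 14.0, 27.1, 51.7 and 6.46% of the mt-Co3 pair in Hap-I adult + WD libraries, against 63.4, 68.2, 72.6 and 78.8% in Hap-II adult + WD and 60.4, 60.1, 59.1 and 57.6% in C57 adult libraries. Here Hap-I adult + WD was the group with the smallest mean share, and its 4 libraries spread widely. Gm29216, which matches the last 492 bases of the 1545 of mt-Co1 with 6 substitutions, took 43.7% of its pair on average in Hap-I adult + WD and 60.5% in C57 adult. Gm28439 and Gm10222, the copies of mt-Nd4 and mt-Nd4l, were listed at 0 in all 24 libraries. Values of mt-Nd3, mt-Co1, mt-Co2, mt-Co3 and mt-Atp6 are therefore uncertain, and their sums with the copy are given beside them.

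**Figure D1:**
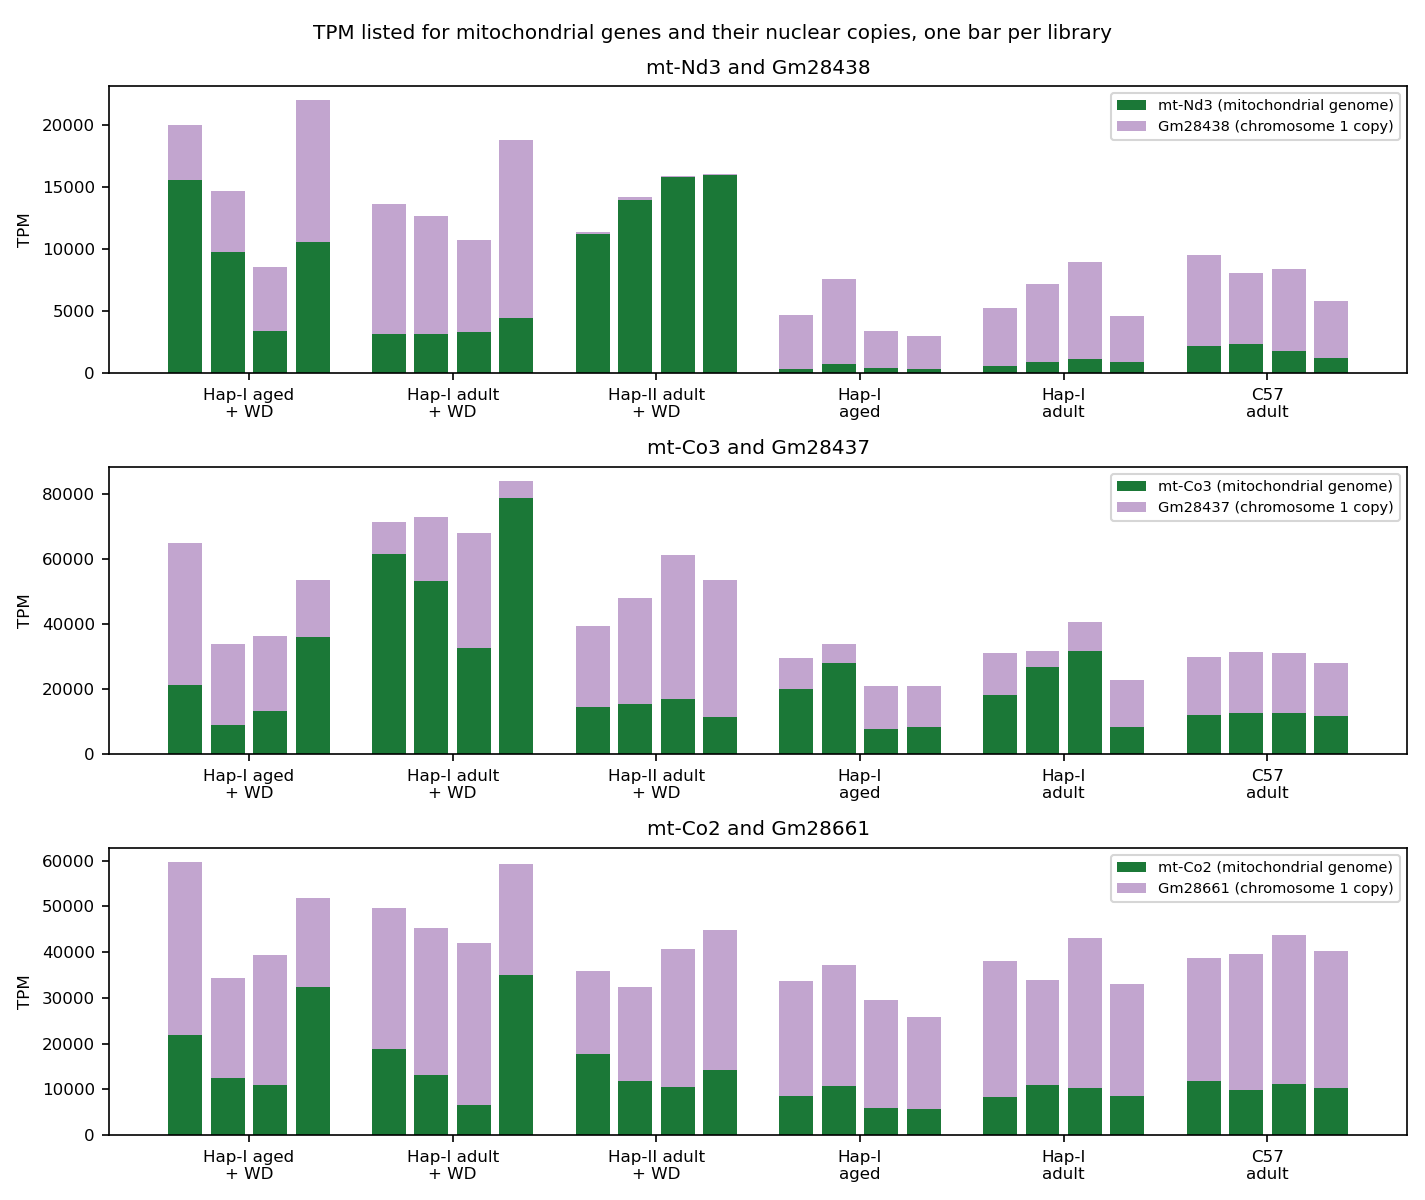
Stacked bars give TPM of mt-Nd3, mt-Co3 and mt-Co2 and of their chromosome 1 copies in each library, by group. The sum for mt-Nd3 averaged 13929 TPM in Hap-I adult + WD and 14354 TPM in Hap-II adult + WD, while the split within the sum differed.

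Mitochondrial members made up 35.7, 22.9, 21.3 and 30.8% of all TPM in Hap-I aged + WD libraries, 34.7, 30.6, 25.0 and 31.2% in Hap-I adult + WD libraries and 22.6, 21.2, 26.1 and 27.8% in Hap-II adult + WD libraries. In C57 adult libraries the share was 12.4, 16.9, 16.7 and 14.7%, so all 12 libraries on WD lay above all 4 of C57 adult. These shares leave out the chromosome 1 copies, and adding the copies narrows this gap. Nuclear members made up 4.99 ± 0.349%, 5.48 ± 0.284% and 6.27 ± 1.06% in the same order and 5.46 ± 0.877% in C57 adult (mean ± SD, n = 4 each), and these groups overlapped. The ratio of the mitochondrial to the nuclear sum was 7.71, 4.43, 4.47 and 5.71 in Hap-I aged + WD, 6.41, 5.91, 4.58 and 5.32 in Hap-I adult + WD and 4.02, 2.77, 4.00 and 5.26 in Hap-II adult + WD. It was 1.83, 3.49, 3.36 and 2.80 in C57 adult libraries, below every library of both Hap-I groups on WD and overlapping with Hap-II adult + WD. With the chromosome 1 copies added to the mitochondrial sum the ratios averaged 7.70 ± 2.07, 7.65 ± 0.622 and 5.72 ± 1.46, and 5.12 ± 1.06 in C57 adult, which narrows the gap for Hap-II adult + WD to less than 1 SD of either group. As a share of the nuclear part of the TPM alone, the nuclear members were 8.19 ± 1.17%, 9.44 ± 0.798% and 9.61 ± 1.39% on WD and 7.496 ± 0.994% in C57 adult.

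Taken by complex, the gap between the groups on WD and C57 adult was widest at the ATP synthase. The mitochondrial-to-nuclear ratio of complex V was 6.37, 4.43, 2.39 and 3.84 in Hap-I aged + WD, 4.79, 3.82, 2.78 and 2.54 in Hap-I adult + WD and 2.63, 1.79, 2.77 and 3.33 in Hap-II adult + WD, against 0.885, 1.61, 1.20 and 1.01 in C57 adult. Without the copies, no library on WD overlapped with C57 adult for this complex. Complex I averaged 6.60 ± 2.16, 5.43 ± 0.956 and 5.48 ± 1.71 on WD and 3.43 ± 1.11 in C57 adult. Here the highest C57 adult library (4.29) reached into the range of Hap-I adult + WD (lowest 4.15) and Hap-II adult + WD (lowest 3.56). Complex IV averaged 7.11 ± 2.196, 9.67 ± 2.08 and 4.88 ± 0.898 on WD and 4.46 ± 1.07 in C57 adult, and its sum holds mt-Co3, whose split with its copy differed between the groups. Complex III, whose one mitochondrial member mt-Cytb has no copy in the table, averaged 4.93 ± 1.03, 4.27 ± 0.335 and 3.53 ± 0.992 on WD and 4.12 ± 1.13 in C57 adult, and all 3 WD means lay within the range of the C57 adult libraries. Complex II, made of nuclear subunits only, summed to 1267, 1328 and 1438 TPM on WD and 1629.8 TPM in C57 adult. With copies added, complex V averaged 4.68 ± 1.52, 4.10 ± 0.876 and 2.91 ± 0.726 on WD against 1.87 ± 0.407 in C57 adult. Libraries of Hap-II adult + WD then overlapped with C57 adult, and those of the Hap-I groups on WD did not. Complex IV with copies averaged 14.6 ± 4.12, 16.6 ± 1.74 and 11.3 ± 2.47, and 12.2 ± 2.18 in C57 adult, with Hap-II adult + WD now below C57 adult. Sums over members are descriptions and carry no test.

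**Figure D2:**
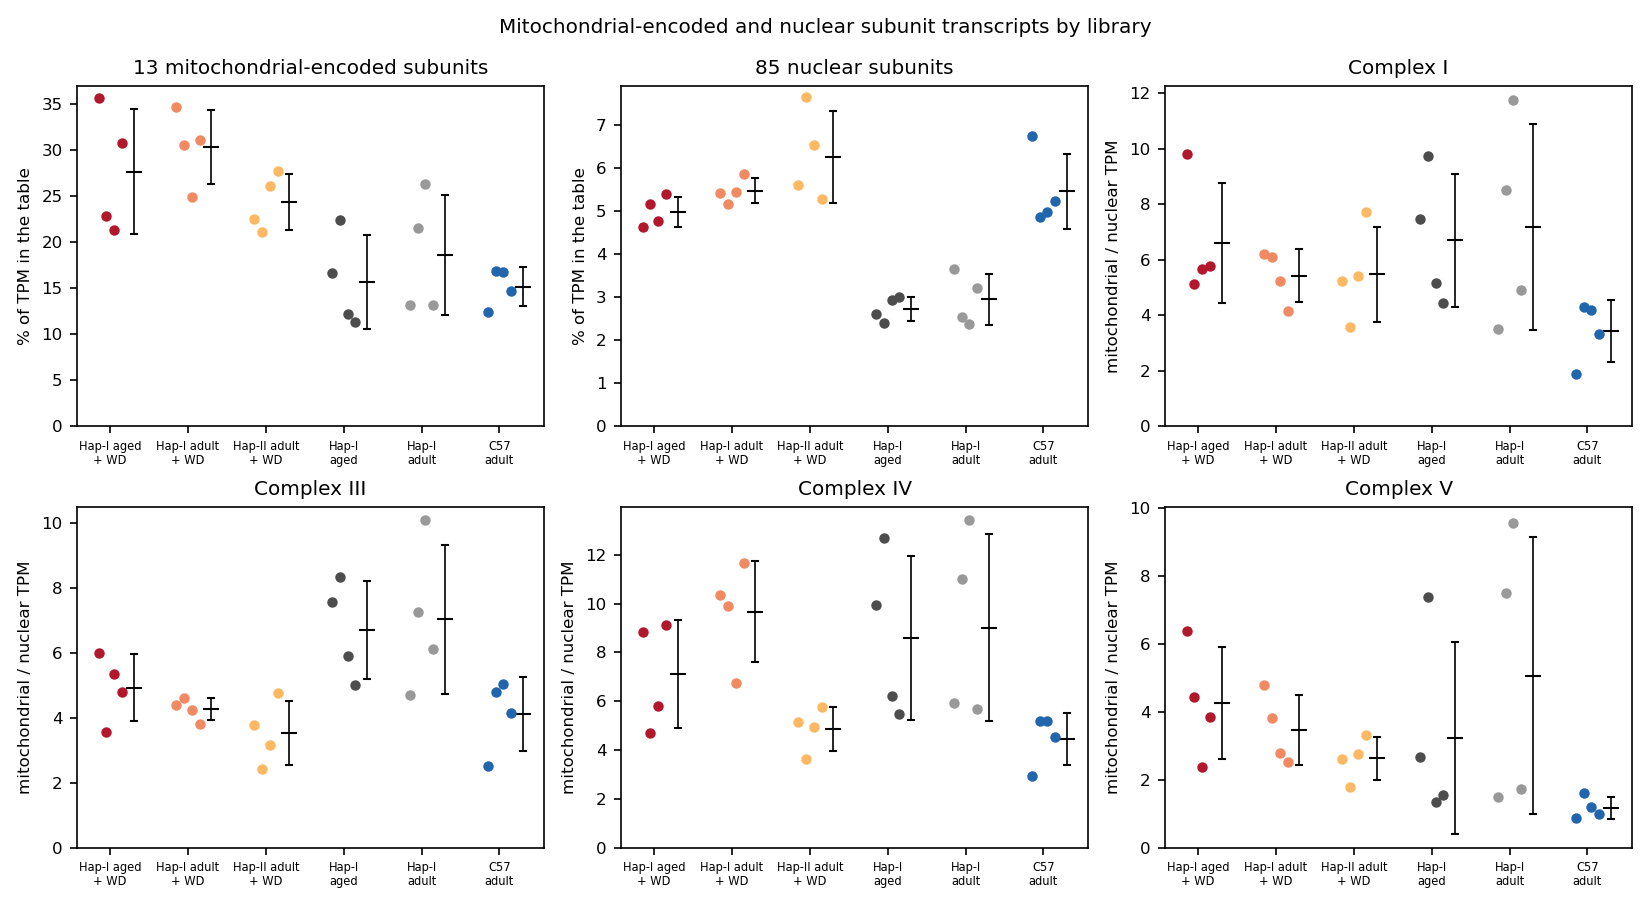
Panels plot, for each library (points) with group mean ± SD (bars), the share of table TPM of the 13 mitochondrial and of the 85 nuclear members and the mitochondrial-to-nuclear ratio for complexes I, III, IV and V. Chromosome 1 copies are left out. For complex V the 4 C57 adult libraries then lie between 0.885 and 1.61, below all 12 libraries on WD.

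Single mitochondrial members were tested as log2(TPM + 1) with limma, in a fit of the 16 kidney libraries over 12923 genes. Against C57 adult, 11 of 13 were called higher in Hap-I adult + WD (adjusted p under 0.05) and 0 lower, and 8 of 13 higher in Hap-II adult + WD and 0 lower. Over all genes, 2.28% were called higher and 59.7% lower in Hap-I adult + WD, and 2.73% higher and 36.9% lower in Hap-II adult + WD. Both comparisons use the same 4 C57 adult libraries. The 2 genes of complex V were called higher in both, mt-Atp6 in Hap-II adult + WD only while its copy was left out.

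mt-Atp6, which encodes the proton channel subunit a, had 38088, 29803, 21997 and 29037 TPM in Hap-I adult + WD libraries and 25972, 22006, 27523 and 28917 TPM in Hap-II adult + WD libraries, against 11972, 13735, 10778 and 9381 TPM in C57 adult libraries. All 8 WD libraries lay above all 4 of C57 adult (log2 change 1.36 ± 0.25, adjusted p = 0.0012 for Hap-I; log2 change 1.19 ± 0.25, adjusted p = 0.0042 for Hap-II). Summed with Gm10925, the change was log2 0.79 (adjusted p = 0.0026) in Hap-I adult + WD and 0.43 in Hap-II adult + WD, which was no longer called (adjusted p = 0.062). mt-Atp8, a small subunit at the same stalk with no copy in the table, had 38052, 29557, 22089 and 14744 TPM in Hap-I adult + WD and 18437, 18124, 25698 and 21673 TPM in Hap-II adult + WD, against 6430.3, 10879, 8061 and 7248 TPM in C57 adult libraries. Neither WD group overlapped with C57 adult (log2 change 1.62 ± 0.31, adjusted p = 0.0014; log2 change 1.38 ± 0.31, adjusted p = 0.0059).

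Of the complex I genes, which encode membrane-arm subunits, mt-Nd1, mt-Nd2, mt-Nd4, mt-Nd5 and mt-Nd6 rose in both WD groups, by log2 0.68, 0.86, 0.73, 0.95 and 0.72 in Hap-I adult + WD and by 0.57, 0.96, 0.58, 0.98 and 0.76 in Hap-II adult + WD. Their adjusted p-values lay between 0.004 and 0.011 for Hap-I and between 0.0057 and 0.041 for Hap-II. mt-Nd2 averaged 11497 ± 1186 TPM in Hap-I adult + WD and 12492 ± 2604 TPM in Hap-II adult + WD, against 6462 ± 1489 TPM in C57 adult (SD, n = 4 each). mt-Nd4l was called in Hap-I adult + WD (log2 change 1.03 ± 0.35, adjusted p = 0.019), where its groups overlapped, and not in Hap-II adult + WD (log2 change 0.63 ± 0.35, adjusted p = 0.15). The direction of mt-Nd1 in Hap-II adult + WD turned under quantile normalization, to log2 -0.038.

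mt-Nd3, another membrane-arm gene, had 3132, 3135, 3300.2 and 4462 TPM in Hap-I adult + WD and 11158, 13889, 15765 and 15952 TPM in Hap-II adult + WD, against 2163, 2307, 1739 and 1183 TPM in C57 adult libraries. The 3 groups did not overlap and both changes were called (log2 change 0.95 ± 0.35, adjusted p = 0.026; log2 change 2.97 ± 0.35, adjusted p = 0.00023). The sum with Gm28438 was 13622, 12622, 10709.6 and 18763 TPM in Hap-I adult + WD and 11354, 14171, 15842 and 16046 TPM in Hap-II adult + WD, against 9463, 8039, 8363 and 5812 TPM in C57 adult. The sums of the WD groups thus overlapped with each other and lay above C57 adult (log2 0.81, adjusted p = 0.016 for Hap-I; log2 0.87, adjusted p = 0.021 for Hap-II).

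Among the catalytic subunits of complex IV, mt-Co1 averaged 47998 ± 6095 TPM in Hap-I adult + WD and 41729 ± 6076 TPM in Hap-II adult + WD, against 29872 ± 6076 TPM in C57 adult. It was called for Hap-I (log2 change 0.70 ± 0.21, adjusted p = 0.0096) and not for Hap-II (log2 change 0.50 ± 0.21, adjusted p = 0.064). Summed with Gm29216 it was not called for Hap-I either (log2 0.20, adjusted p = 0.44), and the Hap-II value was log2 -0.05 (adjusted p = 0.87). mt-Co2 was not called (log2 change 0.52 ± 0.41, adjusted p = 0.26; log2 change 0.31 ± 0.41, adjusted p = 0.55), and its Hap-I adult + WD libraries ran from 6551 to 34989 TPM. Summed with Gm28661 it was not called either (log2 0.26, adjusted p = 0.21 for Hap-I; log2 -0.09, adjusted p = 0.69 for Hap-II). mt-Co3 had 61524, 53276, 32762 and 78711 TPM in Hap-I adult + WD and 14401, 15298, 16801 and 11379 TPM in Hap-II adult + WD, against 11880.2, 12536, 12724 and 11819.6 TPM in C57 adult libraries. Only Hap-I adult + WD stood clear of C57 adult (log2 change 2.14 ± 0.34, adjusted p = 0.00076), and Hap-II adult + WD was not called (log2 change 0.23 ± 0.34, adjusted p = 0.59) until the copy was added (log2 0.73, adjusted p = 0.013). For Hap-I adult + WD the change of the sum with Gm28437 was smaller than that of mt-Co3 alone, at log2 1.30 (adjusted p = 0.00072), with sums of 71544, 73037, 67885 and 84145 TPM against 30015, 31382, 31139.6 and 27897 TPM in C57 adult libraries. mt-Cytb, the cytochrome b of complex III, missed the threshold in both (log2 change 0.43 ± 0.19, adjusted p = 0.059; log2 change 0.34 ± 0.19, adjusted p = 0.16).

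Nuclear members went both ways against C57 adult. In Hap-I adult + WD, 11 of 83 tested were called higher and 15 lower, and in Hap-II adult + WD 17 higher and 13 lower. Together with the mitochondrial genes that was 37 and 38 of 96 members tested, against 62% and 39.7% of all genes. The median change of the nuclear members was log2 0.04 and 0.11, while that of all genes tested was -0.80 and -0.59. With the level of Y-linked genes as a covariate, 16 members were called for Hap-I adult + WD and 18 for Hap-II adult + WD. Without the covariate, the 38 members called for Hap-II adult + WD fell to 17 without Hap-II adult + WD replicate 3 and to 23, 22 and 21 without C57 adult replicates 2, 3 and 4. In Hap-I adult + WD the nuclear members called higher included accessory subunits of complex I and the complex II anchor Sdhd, and those called lower included catalytic and core subunits of complexes I, II, III and V.

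The rise was clearest for Ndufc2 (ENSMUSG00000030647, chr7:97400003-97407802), an accessory subunit of the membrane arm of complex I. It had 315, 293, 285 and 297 TPM in Hap-I adult + WD and 283, 316, 309 and 289.9 TPM in Hap-II adult + WD, against 155, 102, 110.2 and 129 TPM in C57 adult libraries. The 8 WD libraries stood well above the 4 of C57 adult (log2 change 1.27 ± 0.19, adjusted p = 0.00061; log2 change 1.28 ± 0.19, adjusted p = 0.00076). Ndufb6 (chr4:40270591-40279421), from the same arm, had 465, 466, 495 and 522 TPM in Hap-I adult + WD and 319.9, 522, 569 and 408 TPM in Hap-II adult + WD, against 283, 185, 192 and 215 TPM in C57 adult. Its groups did not overlap either (log2 change 1.17 ± 0.19, adjusted p = 0.00082; log2 change 1.04 ± 0.19, adjusted p = 0.0025). Ndufb4 had 206, 302, 320.3 and 587 TPM in Hap-I adult + WD, against 181, 115, 136 and 111 TPM in C57 adult (log2 change 1.30 ± 0.45, adjusted p = 0.02), and it was not called in Hap-II adult + WD (log2 change 0.73 ± 0.45, adjusted p = 0.19). Ndufb4 shares sequence with 2 other rows of the table, so its level is uncertain. Other nuclear members named here share sequence with further rows as well, among them Cox7c, Atp5l, Uqcr11 and Ndufs3. The same limit applies to their levels. Ndufs4, an accessory subunit of the matrix arm, rose in Hap-II adult + WD, with 33.4, 40.4, 49.3 and 29.9 TPM against 18.0, 22.9, 19.6 and 16.9 TPM in C57 adult (log2 change 0.93 ± 0.34, adjusted p = 0.039). In Hap-I adult + WD it overlapped with C57 adult (log2 change 0.21 ± 0.34, adjusted p = 0.59), and the difference between Hap-I and Hap-II was not called (adjusted p = 0.82).

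Among the members called higher in complexes III to V were the following 5. Uqcr10, of complex III, averaged 1533 ± 141 TPM in Hap-I adult + WD and 1719 ± 429 TPM in Hap-II adult + WD, against 859 ± 290.4 TPM in C57 adult (log2 change 0.89 ± 0.24, adjusted p = 0.0058; log2 change 1.02 ± 0.24, adjusted p = 0.007). Uqcr11 was called in both although its groups overlapped (log2 change 0.91 ± 0.28, adjusted p = 0.011; log2 change 0.96 ± 0.28, adjusted p = 0.017). Cox7c (chr13:86044816-86046904), of complex IV, had 1231, 1124, 1321 and 1355 TPM in Hap-I adult + WD and 1359, 2110.1, 2339 and 1770.5 TPM in Hap-II adult + WD, against 971, 663, 656 and 680.3 TPM in C57 adult. The WD libraries were all higher (log2 change 0.78 ± 0.19, adjusted p = 0.0043; log2 change 1.34 ± 0.19, adjusted p = 0.00076). Atp5e, the epsilon subunit of the synthase, had 2187, 2199.7, 2237 and 2884 TPM in Hap-I adult + WD and 1535, 3205, 3223 and 1934 TPM in Hap-II adult + WD, against 1967, 1002, 1027 and 1192 TPM in C57 adult. Only the first of these groups was clear of C57 adult, whose first library was at 1967 TPM (log2 change 0.92 ± 0.30, adjusted p = 0.016; log2 change 0.92 ± 0.30, adjusted p = 0.028). Atp5l, subunit g of the synthase, averaged 1397 ± 81.1 TPM in Hap-I adult + WD and 1728 ± 420.0 TPM in Hap-II adult + WD, against 875 ± 220.5 TPM in C57 adult (log2 change 0.70 ± 0.21, adjusted p = 0.0098; log2 change 0.98 ± 0.21, adjusted p = 0.0048).

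The catalytic subunits called lower began with Sdha (ENSMUSG00000021577, chr13:74322254-74350280), the flavoprotein that oxidises succinate in complex II. Sdha had 161, 147, 130.1 and 108 TPM in Hap-I adult + WD and 323, 166, 91.2 and 145 TPM in Hap-II adult + WD, against 289, 460.2, 447 and 471 TPM in C57 adult libraries. Hap-I adult + WD lay below all of C57 adult (log2 change -1.59 ± 0.39, adjusted p = 0.0037), and 1 Hap-II adult + WD library at 323 TPM overlapped (log2 change -1.32 ± 0.39, adjusted p = 0.018). Its partner Sdhb, the iron-sulfur subunit, was not called (log2 change -0.18 ± 0.20, adjusted p = 0.42; log2 change -0.02 ± 0.20, adjusted p = 0.93). Of the membrane anchors, Sdhc was called lower in Hap-I adult + WD (log2 change -0.69 ± 0.28, adjusted p = 0.04) and not in Hap-II adult + WD (log2 change -0.57 ± 0.28, adjusted p = 0.1). The other anchor, Sdhd, rose in both: it had 541, 572, 609 and 449 TPM in Hap-I adult + WD and 443, 659, 559.5 and 414 TPM in Hap-II adult + WD, against 375, 387, 366 and 379.9 TPM in C57 adult. None of these 8 WD libraries fell into the narrow C57 adult range (log2 change 0.51 ± 0.17, adjusted p = 0.015; log2 change 0.43 ± 0.17, adjusted p = 0.048). The 4 subunits of complex II thus did not move as 1 group.

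In complex V the alpha and beta subunits, which form the catalytic head, fell. Atp5b (chr10:128083273-128090391), the beta subunit and the nuclear member with the highest level in C57 adult, had 1856, 1754, 1744 and 2383 TPM in Hap-I adult + WD and 2847, 2243, 1489 and 1900.4 TPM in Hap-II adult + WD, against 5047, 3703, 3719 and 3944 TPM in C57 adult. Every WD library was below every C57 adult library (log2 change -1.08 ± 0.21, adjusted p = 0.0015; log2 change -0.98 ± 0.21, adjusted p = 0.0054). Atp5a1, the alpha subunit, had 295, 266, 255 and 271 TPM in Hap-I adult + WD and 554, 346, 205 and 263 TPM in Hap-II adult + WD, against 572, 649.8, 637 and 710.0 TPM in C57 adult, again with no overlap (log2 change -1.24 ± 0.29, adjusted p = 0.0029; log2 change -1.003 ± 0.29, adjusted p = 0.016). The gamma subunit Atp5c1 did not pass the test (-0.05 ± 0.17 and 0.06 ± 0.17 on the log2 scale).

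In complex I the lower genes included core subunits of the matrix arm and accessory subunits. Ndufs1, which holds iron-sulfur clusters, averaged 81.8 ± 9.55 TPM in Hap-I adult + WD and 95.9 ± 34.4 TPM in Hap-II adult + WD, against 185 ± 38.7 TPM in C57 adult (log2 change -1.15 ± 0.24, adjusted p = 0.0018; log2 change -0.98 ± 0.24, adjusted p = 0.0084). Ndufv1, the NADH-binding subunit, was called in both as well (log2 change -0.69 ± 0.29, adjusted p = 0.048; log2 change -0.79 ± 0.29, adjusted p = 0.04), as were the core subunit Ndufs3 and the accessory subunit Ndufa10 (log2 -0.65 and -1.07 in Hap-I adult + WD, -0.55 and -0.74 in Hap-II adult + WD). In complex III the core protein Uqcrc1 averaged 98.8 ± 9.14 TPM in Hap-I adult + WD and 118 ± 50.8 TPM in Hap-II adult + WD, against 226 ± 12.9 TPM in C57 adult (log2 change -1.19 ± 0.30, adjusted p = 0.0046; log2 change -1.04 ± 0.30, adjusted p = 0.018). Ndufa9, an accessory subunit, was listed at 0 in 1 Hap-I adult + WD library and at 35.2 to 48.3 TPM in the other 3, against 84.9 to 110.0 TPM in C57 adult, and did not pass the test (log2 change -2.57 ± 1.19, adjusted p = 0.068).

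Counted by complex, nuclear members called higher and lower in Hap-I adult + WD were 4 and 6 in complex I, 1 and 2 in complex II, 2 and 2 in complex III, 2 and 3 in complex IV and 2 and 2 in complex V. In Hap-II adult + WD they were 6 and 6, 1 and 1, 3 and 1, 3 and 3, and 4 and 2. No complex moved as a block in either comparison.

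Members called higher tended to have short transcripts and members called lower long ones, and change also fell with length over all nuclear genes tested. Transcripts of Atp5e, Uqcr10, Uqcr11, Cox7c and Ndufb6 measure 421, 434, 445, 540 and 659 bases, and those of Sdha, Ndufs1, Atp5a1, Ndufa10 and Atp5b measure 2900, 2625.5, 2471, 2020 and 1916 bases. For Hap-I adult + WD against C57 adult, the 24 nuclear members of up to 600 bases had a median change of log2 0.20, with 6 called higher and 2 lower, and the 212 genes tested of that length had a median of 0.13. The 29 members of over 600 and up to 1000 bases had a median of 0.09, against -0.15 for 705 genes. The 22 members of over 1000 and up to 2000 bases had a median of -0.24, with 1 called higher and 7 lower, against -0.58 for 2877 genes. The 8 members of over 2000 and up to 4000 bases had a median of -0.88, with 0 called higher and 5 lower, and the 5077 genes of that length had one of -0.87. Across genes, which are not independent replicates, the change correlated with log2 length at Pearson r = -0.39 over 83 nuclear members and -0.35 over 12347 nuclear genes (Spearman -0.44 and -0.36). In Hap-II adult + WD the medians of the members were 0.34, 0.27, -0.06 and -0.65 in the 4 length classes, beside 0.19, -0.01, -0.39 and -0.65 over all genes. The correlations were -0.36 over members and -0.34 over all nuclear genes (Spearman -0.44 and -0.34). The part of transcript length in these changes was not tested.

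**Figure D3:**
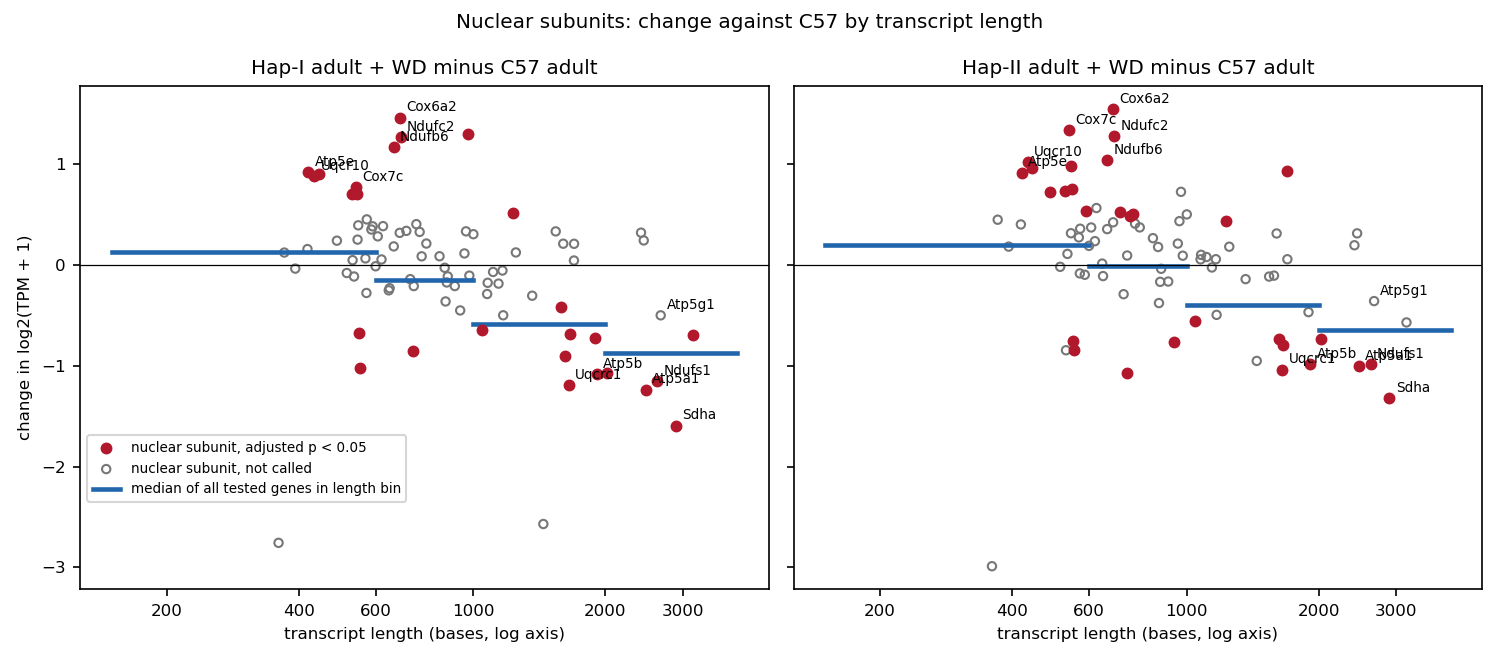
The log2 change of each nuclear member against C57 adult is plotted by transcript length in bases (log axis), for Hap-I adult + WD and Hap-II adult + WD. Filled red points are members called, open points members not called, and blue lines the median of all genes tested in a length class, which falls with length in both panels.

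Directions of these genes depended on the scaling. All genes tested had a median change of log2 -0.80 in Hap-I adult + WD and -0.59 in Hap-II adult + WD against C57 adult. Rescaling by median of ratios moved those medians to -0.02 and -0.01. It then called 58 nuclear members higher and 0 lower, and 13 of 13 mitochondrial members higher, in Hap-I adult + WD. In Hap-II adult + WD it called 41 nuclear members higher and 0 lower, and 10 mitochondrial members higher. Quantile normalization gave 22 nuclear members higher and 10 lower in Hap-I adult + WD and 18 and 9 in Hap-II adult + WD, with 4 and 3 mitochondrial members higher. With the mitochondrial genes and their copies left out and the rest rescaled, 24 nuclear members were higher and 8 lower in Hap-I adult + WD, and 23 and 9 in Hap-II adult + WD. Among the members called lower in Hap-I adult + WD, median-of-ratios scaling gave Ndufs3, Ndufv1, Ndufv3, Sdhc, Uqcrc2 and Cox8a a positive change, and in Hap-II adult + WD it turned Ndufs3. Sdha, Atp5a1, Atp5b, Ndufs1 and Uqcrc1 kept a negative sign under it, although none was called lower.

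**Figure D4:**
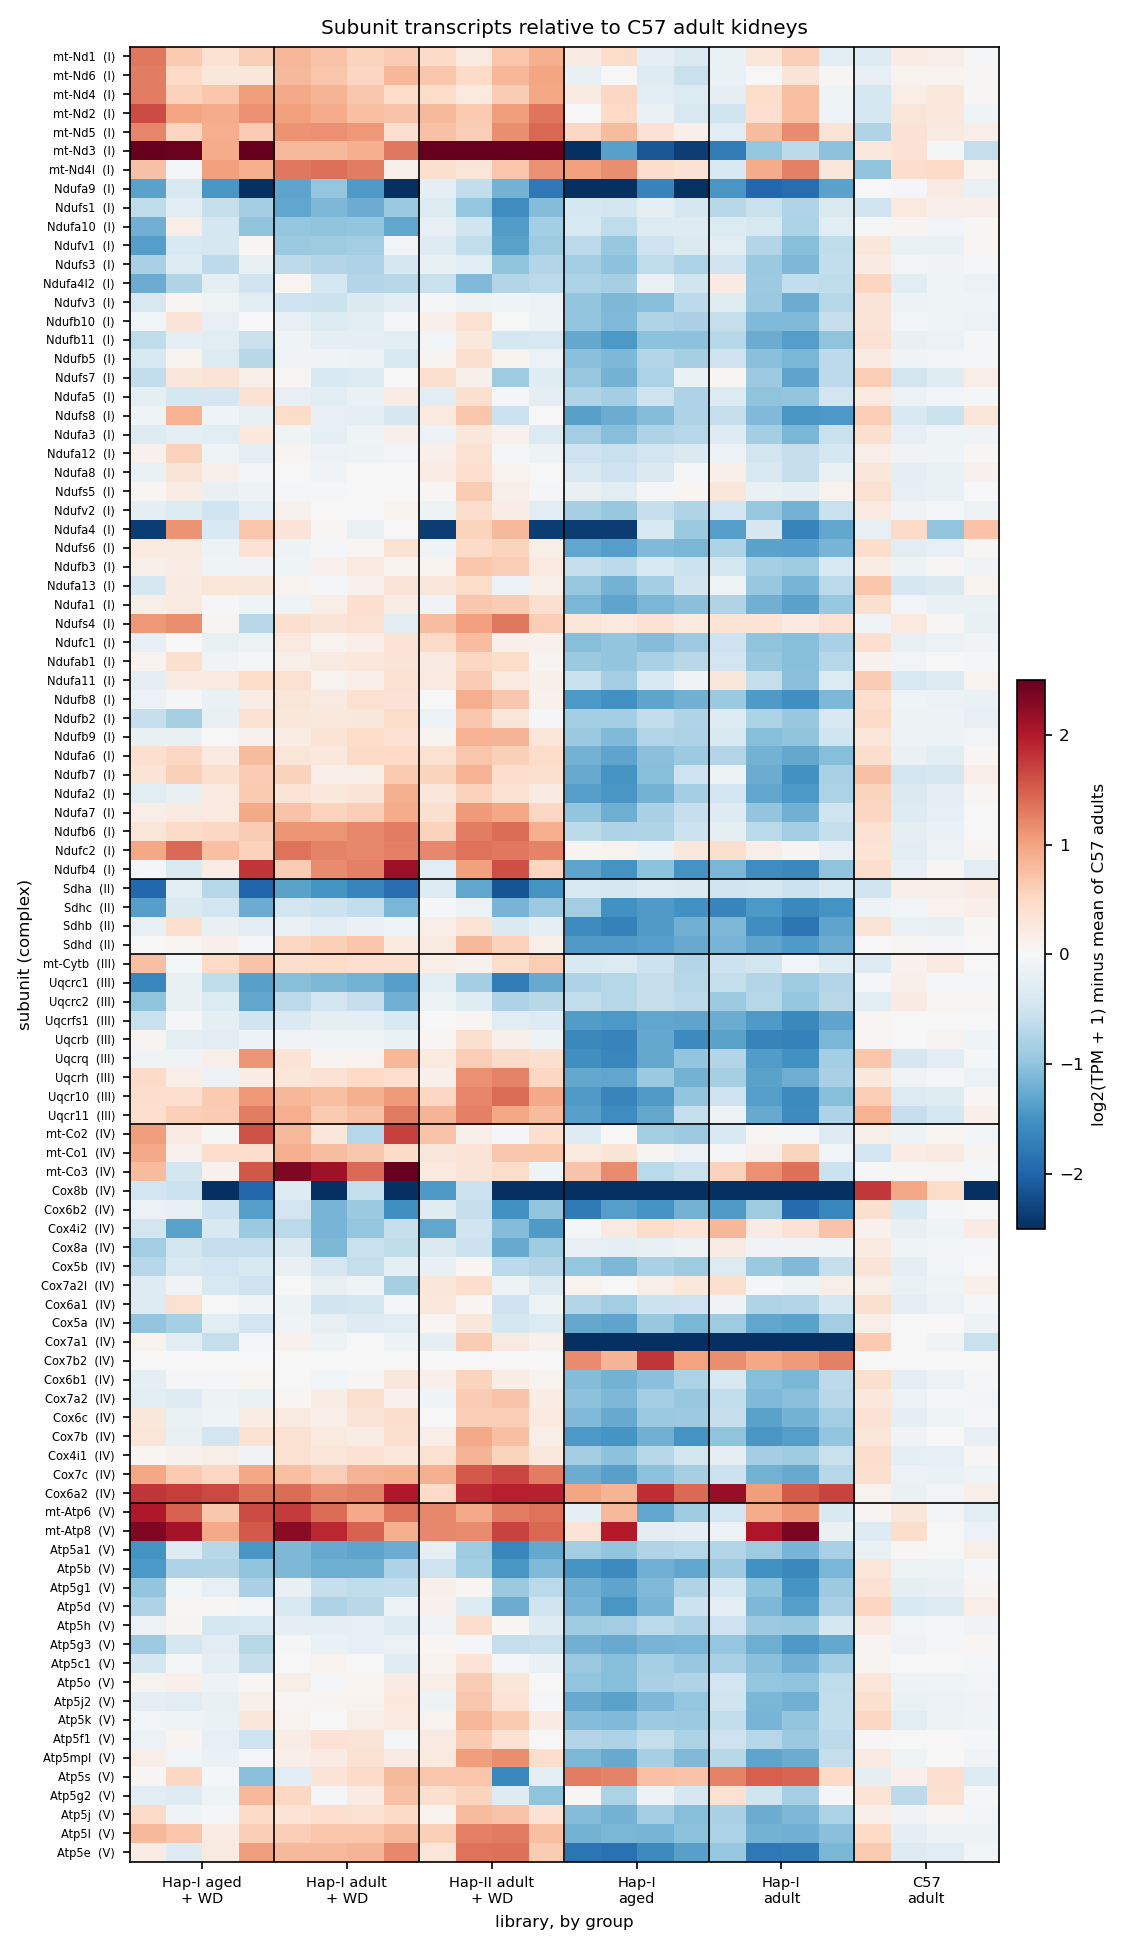
Rows are members ordered by complex with the mitochondrial genes marked, columns are the 24 libraries by group, and colour is log2(TPM + 1) minus the mean of the 4 C57 adult libraries, limited to ±2.5. The mitochondrial rows are mostly above C57 adult in the WD groups, and most nuclear rows are below it in the libraries labelled Hap-I aged and Hap-I adult.

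Hap-I adult + WD and Hap-II adult + WD share diet and stage and differ in haplotype. Of 96 members tested, 2 were called, against 0.0774% of all genes, and both were mitochondrial genes with a copy on chromosome 1. mt-Nd3 was lower in Hap-I adult + WD, at 3507 ± 641 TPM against 14191 ± 2226 TPM in Hap-II adult + WD (SD, n = 4 each; log2 change -2.02 ± 0.35, adjusted p = 0.035). mt-Co3 was higher, at 56568 ± 19082 TPM against 14469.9 ± 2286 TPM (log2 change 1.91 ± 0.34, adjusted p = 0.04). Neither gene overlapped between the groups, as the values above show. Their copies moved the other way: Gm28438 had 10489, 9487, 7409 and 14300.2 TPM in Hap-I adult + WD and 196, 282, 77.3 and 93.6 TPM in Hap-II adult + WD, and Gm28437 had 10020.1, 19760.3, 35123 and 5434 TPM in Hap-I adult + WD and 24934, 32865, 44615 and 42289 TPM in Hap-II adult + WD. With copies summed, the mt-Nd3 difference was log2 -0.06 (adjusted p = 0.94) and the mt-Co3 difference log2 0.56 (adjusted p = 0.82), and 0 members were called. The mt-Co3 sums were still higher in every Hap-I adult + WD library than in any of Hap-II adult + WD. Leaving out any 1 of the 8 libraries left 0 or 1 member called. At an unadjusted p under 0.05, 5 members passed, beside 3.26% of all genes. The nuclear members with the smallest p were Cox7c (-0.57 ± 0.19), Atp5mpl (-0.48 ± 0.19) and Ndufs4 (-0.72 ± 0.34 on the log2 scale), each with an adjusted p of 0.82.

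Hap-I aged + WD and Hap-I adult + WD differ in age. No member of 96 was called, against 0.031% of all genes. At an unadjusted p under 0.05, 13 members passed, beside 16.1% of all genes. Groups did not overlap for 11 members, 1 higher and 10 lower in Hap-I aged + WD, where 6.82% of all genes did not overlap, 6.18% higher and 0.642% lower. The nuclear median was log2 -0.07, while all genes had a median of 0.32. The smallest p among nuclear members was that of Ndufb6, with 265, 301, 311 and 336 TPM in Hap-I aged + WD and 465, 466, 495 and 522 TPM in Hap-I adult + WD. These values did not overlap and the change was -0.69 ± 0.19 (adjusted p = 0.15). Sdhd had 379, 391, 414 and 365 TPM in Hap-I aged + WD and 541, 572, 609 and 449 TPM in Hap-I adult + WD, also apart (log2 change -0.48 ± 0.17, adjusted p = 0.2). Ndufb2, a further accessory subunit of complex I, followed (log2 change -0.62 ± 0.25, adjusted p = 0.26). mt-Nd3 had 15542, 9759, 3407 and 10525 TPM in Hap-I aged + WD, a range that reaches from that of Hap-I adult + WD to that of Hap-II adult + WD (log2 change 1.31 ± 0.35, adjusted p = 0.14), and mt-Co3 had 21159, 8948, 13261 and 35887 TPM (log2 change -1.64 ± 0.34, adjusted p = 0.075). Summed with their copies these age differences were log2 0.16 (adjusted p = 0.71) for mt-Nd3 and log2 -0.70 for mt-Co3 (adjusted p = 0.16).

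Subunits with tissue isoforms were read as a fixed panel. Of the ubiquitous forms, Cox4i1 averaged 2185 ± 86.0 TPM in Hap-I adult + WD, 2509 ± 458 TPM in Hap-II adult + WD and 1772 ± 411 TPM in C57 adult, and was called higher in Hap-II adult + WD (log2 change 0.51 ± 0.18, adjusted p = 0.033). Cox4i2, the lung and low-oxygen isoform, was scarce, at 1.02, 0.426, 0.635 and 1.14 TPM in Hap-I adult + WD and 0.313, 1.28, 0.517 and 0.205 TPM in Hap-II adult + WD, against 2.46, 1.81, 1.97 and 2.69 TPM in C57 adult. It was lower without overlap in both (log2 change -0.85 ± 0.25, adjusted p = 0.009; log2 change -1.07 ± 0.25, adjusted p = 0.007). Cox6a2, the heart and muscle form of subunit VIa, had 5.54, 4.72, 4.94 and 8.99 TPM in Hap-I adult + WD and 2.45, 8.08, 8.52 and 8.43 TPM in Hap-II adult + WD, against 1.64, 1.21, 1.37 and 1.78 TPM in C57 adult. It was higher in both (log2 change 1.46 ± 0.30, adjusted p = 0.0017; log2 change 1.55 ± 0.30, adjusted p = 0.0029) and stayed a small part beside Cox6a1, which averaged 875 TPM in Hap-I adult + WD, 1012 TPM in Hap-II adult + WD and 1067 TPM in C57 adult and was not called. Striated muscle markers summed to at most 0.652 TPM in any of the 16 kidney libraries.

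Cox8b, the subunit VIII of rodent muscle and brown fat, was the most uneven member, with 48.4, 46.5, 0.446 and 16.6 TPM in Hap-I aged + WD, 54.3, 1.09, 44.4 and 1.04 TPM in Hap-I adult + WD and 24.3, 46.2, 1.499 and 0.882 TPM in Hap-II adult + WD, against 233, 133, 93.3 and 6.55 TPM in C57 adult. Each WD group held libraries below 2 TPM beside libraries above 40 TPM. Neither comparison passed the test (log2 -2.76 ± 1.44 and -2.99 ± 1.44). Summed brown adipocyte markers ran from 0.716 to 17.3 TPM in Hap-I aged + WD, 0 to 19.3 TPM in Hap-I adult + WD and 0.376 to 7.16 TPM in Hap-II adult + WD, against 3.33 to 126 TPM in C57 adult, and their part in the Cox8b level was not tested. Cox8a, the common form, was lower in both, at 818 ± 170.0 TPM in Hap-I adult + WD and 779 ± 206 TPM in Hap-II adult + WD, against 1287 ± 137 TPM in C57 adult (log2 change -0.67 ± 0.21, adjusted p = 0.012; log2 change -0.76 ± 0.21, adjusted p = 0.014). The sign of Cox8a in Hap-I adult + WD turned under median-of-ratios scaling. Cox7a1, the heart and muscle form of subunit VIIa, had 140.3, 119, 130.5 and 120.2 TPM in Hap-I adult + WD and 111, 203, 153 and 140.2 TPM in Hap-II adult + WD, against 205, 130.1, 123 and 88.1 TPM in C57 adult, and overlapped throughout. Cox7a2 averaged 1169, 1345 and 1030.1 TPM in the same order and was not called.

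Other isoforms of the panel were low or not called. Cox6b2, the testis form of subunit VIb, averaged 11.3 ± 3.83 TPM in Hap-I adult + WD and 13.1 ± 4.84 TPM in Hap-II adult + WD, against 23.5 ± 5.51 TPM in C57 adult, and was lower in both (log2 change -1.02 ± 0.32, adjusted p = 0.012; log2 change -0.84 ± 0.32, adjusted p = 0.046), beside Cox6b1 at 1128, 1285 and 1096 TPM, not called. Atp5g1, Atp5g2 and Atp5g3, which encode the same mature subunit c, averaged 839.6, 20.1 and 1453 TPM in C57 adult, and none was called in either comparison. Atp5g1 and Atp5g2 share sequence with further rows of the table, so their levels are uncertain. Ndufa4l2, a low-oxygen relative of Ndufa4, averaged 2.22 ± 0.495 TPM in Hap-II adult + WD and 4.55 ± 1.53 TPM in C57 adult (log2 change -0.76 ± 0.26, adjusted p = 0.032). Ndufa4 itself was low for an electron transport gene, at 3.50, 6.18, 1.61 and 7.45 TPM in C57 adult, and was listed at 0 in 1 Hap-I aged + WD and 2 Hap-II adult + WD libraries. Cox8c was listed at 0 in all 24 libraries. Cox7b2 was listed at 0 in all C57 adult libraries and reached 0.802 to 2.44 TPM in the libraries labelled Hap-I aged and Hap-I adult.

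**Figure D5:**
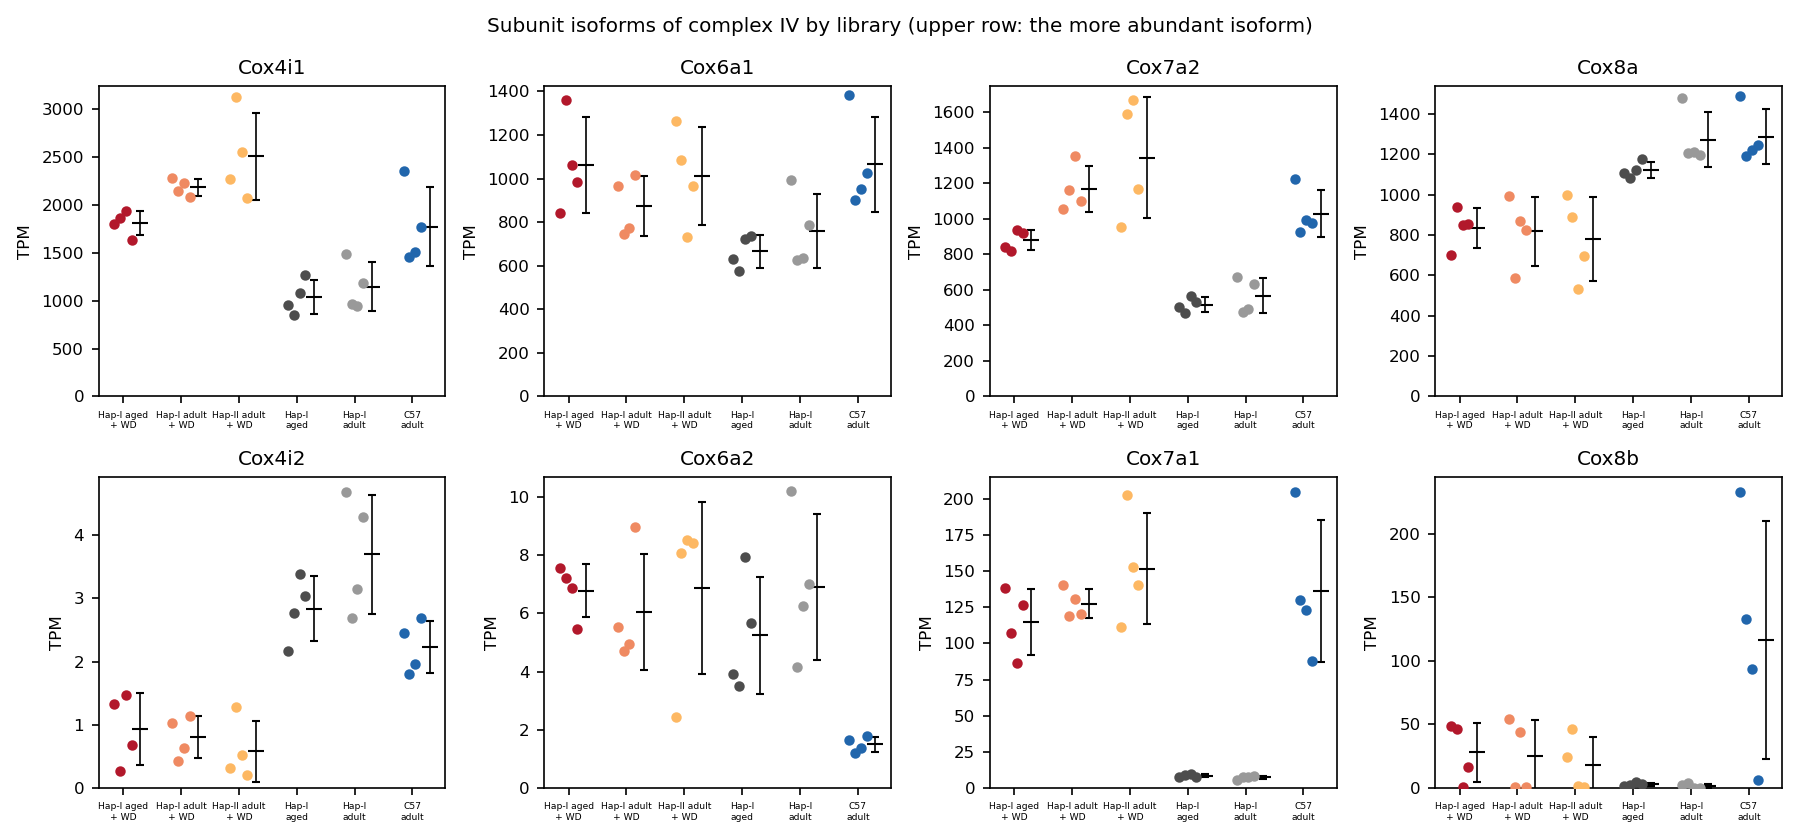
TPM per library (points, with group mean ± SD) are plotted for the isoform pairs Cox4i1 and Cox4i2, Cox6a1 and Cox6a2, Cox7a2 and Cox7a1, and Cox8a and Cox8b. Cox7a1 lies between 86.3 and 205 TPM in the 16 kidney libraries and below 10 TPM in the libraries labelled Hap-I aged and Hap-I adult.

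Levels of single subunits within a complex spanned wide ranges in C57 adult. Per transcript length, complex I ran from Ndufa4l2 at 4.55 ± 1.53 TPM to Ndufb8 at 1219 ± 261 TPM. Complex II ran from Sdhc at 323 ± 27.6 to Sdhb at 512 ± 85.6 TPM. Complex III ran from Uqcrc1 at 226 ± 12.9 to Uqcrh, the hinge protein, at 1741 ± 225 TPM. In complex IV Cox6c was highest at 1905 ± 345 TPM, and in complex V the range was Atp5s at 3.09 ± 0.999 to Atp5b at 4103 ± 639 TPM. The mitochondrial genes lay above all of these but mt-Nd3 and mt-Nd5, from mt-Nd3 at 1848 ± 504 to mt-Co1 at 29872 ± 6076 TPM. The 4 subunits of complex II, the complex with the fewest members, were closer in level than the members of any other complex.

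The libraries labelled Hap-I aged and Hap-I adult, with their neuron markers, held fewer nuclear OXPHOS transcripts than the kidney libraries. Nuclear members made up 2.61, 2.41, 2.93 and 3.00% of TPM in libraries labelled Hap-I aged and 3.65, 2.54, 2.39 and 3.22% in libraries labelled Hap-I adult, while mitochondrial members made up 16.7, 22.5, 12.2 and 11.3% and 13.2, 21.6, 26.4 and 13.2%. The ratio of mitochondrial to nuclear sums averaged 5.92 ± 2.55 and 6.81 ± 3.57, with libraries between 3.61 and 11.03. In libraries labelled Hap-I adult against C57 adult, 4 nuclear members were called higher and 67 lower of 84 tested, and 0 mitochondrial members higher and 1 lower, in a fit of all 24 libraries. Over all genes 45.6% were higher and 25.6% lower in that comparison. By complex, nuclear members called lower were 29 in complex I, 3 in complex II, 8 in complex III, 12 in complex IV and 15 in complex V.

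Of the nuclear members, Cox8b and Cox7a1 fell most in libraries labelled Hap-I adult against C57 adult. Cox7a1 had 5.53, 7.43, 7.74 and 8.30 TPM in libraries labelled Hap-I adult, against 88.1 to 205 TPM in C57 adult (log2 change -4.01 ± 0.21, adjusted p = 7.3e-14). Cox8b averaged 1.65 and 116 TPM (log2 change -5.00 ± 1.30, adjusted p = 0.0017). It was not called in Hap-I adult + WD against libraries labelled Hap-I adult (log2 change 2.24 ± 1.30, adjusted p = 0.12). Nor was it called in Hap-I aged + WD against those labelled Hap-I aged (log2 change 2.05 ± 1.30, adjusted p = 0.15). The further nuclear members with the largest falls were Sdhc (-1.55), Cox6b2 (-1.47), Uqcrb (-1.46), Sdhb (-1.45), Atp5e (-1.41) and Uqcrfs1, the Rieske protein (-1.40 on the log2 scale). Cox6a2 (log2 change 1.61 ± 0.29, adjusted p = 4.2e-05), Atp5s (log2 change 1.17 ± 0.41, adjusted p = 0.013), Cox4i2 (log2 change 0.53 ± 0.22, adjusted p = 0.037) and Cox7b2 were higher. Cox7b2 was listed at 0 in all kidney libraries and passed the filter only through the libraries labelled Hap-I aged and Hap-I adult. Its calls, counted here as higher and in the diet comparisons below as lower, rest on that filter. Of the mitochondrial genes, mt-Nd3 was lower (log2 change -1.10 ± 0.35, adjusted p = 0.0077), and was not called once summed with Gm28438 (log2 -0.31, adjusted p = 0.34).

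The comparison labelled as diet in Hap-I adults set Hap-I adult + WD kidney libraries against these brain-like libraries. It called 54 nuclear members higher and 6 lower, and 9 mitochondrial members higher and 0 lower, where 16.9% of all genes were higher and 63.3% lower. In aged mice the counts were 59 higher and 6 lower, and 9 and 0, where 20.5% of all genes were higher and 60.5% lower. Among the nuclear members called, Cox7a1 led both (log2 3.97 ± 0.21 and 3.60 ± 0.21). In adults it was followed by Ndufb4 (2.63), Atp5e (2.33), Uqcr10 (2.03), Uqcr11 (1.83) and Sdhd (1.80). In aged mice mt-Nd3 alone, whose split with Gm28438 differed between groups, averaged 9808 TPM against 437 TPM (log2 change 4.37 ± 0.35, adjusted p = 1.0e-10). Gm28438 had 4392, 4858, 5101 and 11476 TPM in Hap-I aged + WD and 4371, 6843, 2976 and 2647 TPM in libraries labelled Hap-I aged. The change of mt-Nd3 alone leaves this copy out, so its size is uncertain and is not ranked against that of Cox7a1. Sdha was lower in both (log2 change -1.13 ± 0.33, adjusted p = 0.0038 in adults; log2 change -0.86 ± 0.33, adjusted p = 0.022 in aged mice), with 288, 301, 282 and 314 TPM in libraries labelled Hap-I adult. Cox8a and Cox4i2 were lower in both as well, and Ndufa10 and Ndufs1 in adults, Cox7a2l and Atp5s in aged mice. Median-of-ratios scaling turned the sign of Sdha and Cox8a in both, of Ndufa10 and Ndufs1 in adults and of Cox7a2l in aged mice, and quantile normalization that of mt-Nd1, mt-Nd4 and mt-Nd6 in both. In a test of whether the diet change differed with age, 0 of 97 members were called, beside 0.0263% of all genes. Diet and tissue content cannot be told apart in these values.

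Between libraries labelled Hap-I aged and those labelled Hap-I adult, 0 of 97 members were called by limma, against 0.0296% of all genes. At an unadjusted p under 0.05, 2 members passed, beside 15.4% of all genes. The nuclear members with the smallest p were Ndufa9 (log2 change -0.98 ± 0.34, adjusted p = 0.25), Atp5j2 (log2 change -0.31 ± 0.17, adjusted p = 0.39) and Uqcrc2 (log2 change 0.18 ± 0.10, adjusted p = 0.4). Groups did not overlap for Cox8a alone, where 11.1% of all genes did not.

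Genes that serve the chain without being subunits were counted from 8 lists, beside all-gene shares of 2.28% higher and 59.7% lower in Hap-I adult + WD and 2.73% and 36.9% in Hap-II adult + WD. Of 19 citric acid cycle genes, which feed electrons to the chain, 0 rose and 14 fell in Hap-I adult + WD (median log2 -0.89), and 0 rose and 10 fell in Hap-II adult + WD (-0.73). Ogdh, of the oxoglutarate dehydrogenase complex, averaged 39.0 ± 9.16 TPM in Hap-I adult + WD against 210.2 ± 52.3 TPM in C57 adult (log2 change -2.39, adjusted p = 0.0015). Cs, citrate synthase, averaged 43.3 ± 9.40 TPM in Hap-I adult + WD against 143 ± 25.9 TPM in C57 adult (log2 change -1.71, adjusted p = 0.0015). Of 26 electron carriers and shuttles, 1 rose and 17 fell in Hap-I adult + WD (-0.75), and 1 rose and 7 fell in Hap-II adult + WD (-0.62). Among them Cycs, somatic cytochrome c, averaged 88.9 ± 22.2 TPM in Hap-II adult + WD against 36.5 ± 5.10 TPM in C57 adult (log2 change 1.24, adjusted p = 0.0016).

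The lists for making the chain were mixed. Of 25 genes for transcription and maintenance of mitochondrial DNA, 2 rose and 13 fell in Hap-I adult + WD (-0.60), and 2 and 9 in Hap-II adult + WD (-0.32). Polg, the mitochondrial DNA polymerase, changed by log2 -1.15 in Hap-I adult + WD (adjusted p = 0.0011), and Lrpprc, which stabilises mitochondrial messenger RNA, averaged 10.1 ± 0.916 TPM in Hap-I adult + WD against 36.1 ± 8.81 TPM in C57 adult (log2 change -1.71, adjusted p = 0.0016). Of 16 biogenesis regulators, 0 rose and 8 fell in Hap-I adult + WD (-0.72), and 0 and 4 in Hap-II adult + WD (-0.49), with the coactivator Ppargc1a at 5.36 ± 2.06 TPM in Hap-I adult + WD against 17.5 ± 7.76 TPM in C57 adult (log2 change -1.46, adjusted p = 0.01). Of 16 complex I assembly genes, 1 rose and 6 fell in Hap-I adult + WD (-0.15), and 2 and 0 in Hap-II adult + WD (0.05). Tmem126a rose in both and averaged 121 ± 12.8 TPM in Hap-I adult + WD against 45.7 ± 2.04 TPM in C57 adult (log2 change 1.38, adjusted p = 0.00075). Of 35 assembly genes of complexes II to V, 4 rose and 8 fell in Hap-I adult + WD (-0.06), and 6 and 4 in Hap-II adult + WD (0.01), where Cox17, a copper chaperone, averaged 385 ± 52.8 TPM in Hap-II adult + WD against 150.01 ± 42.0 TPM in C57 adult (log2 change 1.38, adjusted p = 0.00076). Of 48 large and 29 small mitochondrial ribosome proteins, 2 rose and 10 fell and 0 rose and 7 fell in Hap-I adult + WD (-0.16 and -0.22). In Hap-II adult + WD 7 rose and 0 fell and 2 rose and 2 fell (0.00 and -0.05). In the comparisons of haplotype and of age on WD, and of age between libraries labelled Hap-I aged and Hap-I adult, 0 genes of any list were called.

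Promoters of nuclear members were read from the RefSeq table of GRCm38.p6, which held 67 of the 85. The search covered 250 bases before the RefSeq gene start on both strands, with each motif counted by itself even where it overlapped another. RefSeq starts can differ from the gene coordinates given above, and the Sdha window below lies inside the Sdha gene as given there. The core motif of NRF1, a known regulator of respiratory genes, searched as a pair of GCGC runs with A and any 1 base between them, was present in 13 of 67 members (19.4%) and in 4.23% of 27025 genes. The ETS motif CCGGAAG was present in 12 members (17.9%) and in 7.83% of all genes. AAGATGG of YY1 was present in 1 member (1.49%) and 5.18% of all genes, CCAAT in 29 (43.3%) and 37.5%, and TATAAA in 6 (8.96%) and 14.3%. Examples are shown on the strand of the gene with the motif in capitals, for genes described above that rose or fell and for Cox6a1, which was not called: Sdha (chr13:74350241-74350280), Atp5e (chr2:174464167-174464233), Ndufb6 (chr4:40279617-40279671) and Cox6a1 (chr5:115349036-115349105), all on the minus strand. CTTCCGG is the ETS motif read on the other strand.
Sdha NRF1: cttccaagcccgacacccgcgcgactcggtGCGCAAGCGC
Cox6a1 NRF1: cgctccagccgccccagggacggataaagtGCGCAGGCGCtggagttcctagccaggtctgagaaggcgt
Atp5e ETS: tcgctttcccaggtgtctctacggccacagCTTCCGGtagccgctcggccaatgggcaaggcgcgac
Ndufb6 ETS: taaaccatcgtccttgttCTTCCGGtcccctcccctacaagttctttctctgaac
A match of letters is a description of the sequence and not a bound site.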

How the data were processed

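Polyadenylated RNA of 24 samples labelled kidney, 4 per group in 6 groups, was measured with stranded TruSeq libraries after poly(A) pull-down, per the labels' protocols. The authors deposited 1 table of TPM per gene and library. Per the submitters' processing notes, kallisto, DESeq2 and GRCm38 were used, with no version or role listed. No annotation release, strand setting or filter is given in the sources used here. Library totals in the table were 904693 to 944019 TPM, so some quantified transcripts lie outside it. TPM keep no depth, which is unknown, so no counting interval is given and a 0 is written as listed at 0.

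Ensembl identifiers were matched to GENCODE M21 (29811 matched, 342 did not). The members, lists and tests were chosen with earlier results of these data known. Near-identical copies were found from shared 31-base words (at least 50% of a gene's or copy's words). Pairs of library columns shared at most 1 identical value above 0.

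log2(TPM + 1) was tested with limma 3.58.1 in R 4.3.3 (mean-variance trend, two-sided, Benjamini-Hochberg over all genes tested, threshold 0.05) for genes at 1 TPM or more in at least 4 fitted libraries. Fold changes on this scale understate those of low genes. The fits held 16 kidney libraries (12923 genes) for age and haplotype on WD and for WD against C57, 8 libraries (13497 genes) for age without WD, and all 24 (15200 genes) for the rest. Errors after a log2 change are standard errors. On simulated data the 16-library fit recovered 38% of genes changed by 1 on the log2 scale and 93% of those changed by 2, with 7.09% false calls. There, 100 of 12923 genes were changed by each amount. In Hap-I adult + WD against C57 adult 62% of all genes were called, so these rates need not hold for that comparison. Alternatives were other pseudocounts, filters, scalings, weights, sets of libraries, summed copies, a Y-linked covariate, a replicate block and leaving out each library.

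Named genes were all mitochondrial members, up to 8 nuclear members each way with the largest called change and 5 TPM or more on average in whichever group was higher (with under 3 called, the 3 with the smallest p), an isoform panel, the 4 Sdh genes and the highest and lowest nuclear member per complex in C57 adult. Ndufs3, Ndufa9, Ndufv3, Atp5c1, Uqcrc2 and Atp5j2 where named outside that rule were chosen after their values were seen. A member the rule would name is not reported here, and stays in the counts. Sequences are from GRCm38 and, for promoters, RefSeq GRCm38.p6; Python 3.11.15 with pandas 2.3.3 and biopython 1.88 was used.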

Additional observations from a re-analysis of the deposited data

Results flagged for a closer look

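In groups of 4 libraries, a value was marked where its gap to the next exceeded Dixon's critical share of the group's range, which chance alone gives in about 1 of 20 groups; 29 of 390 groups met this. The complex I mitochondrial-to-nuclear ratio had 1 high Hap-I aged + WD library, at 9.81 beside 5.14 to 5.78 in the other 3. In that group the same library was high for mt-Nd6 (15039 TPM), the fourth library for Atp5g2 (34.5 TPM), Ndufb4 (462 TPM) and Uqcrq (1038 TPM), and the second for Sdhb (682 TPM).

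In Hap-I adult + WD the fourth library was high for Ndufb2 (394 TPM), mt-Nd3 (4462 TPM), Atp5e (2884 TPM), Ndufv1 (297 TPM) and Atp5j2 (801 TPM). The same library was low for mt-Nd4l (7435 TPM), mt-Nd5 (3999 TPM), Ndufs4 (15.7 TPM) and Ndufa10 (119 TPM). Other libraries of that group were high for Atp5g1 (731 TPM) and Atp5mpl (1541 TPM). In Hap-II adult + WD the first library was low for Cox6a2 (2.45 TPM). The libraries labelled Hap-I aged held high values of mt-Atp8 (31576 TPM) and Sdhc (176 TPM), and those labelled Hap-I adult one of Cox8a (1479 TPM).

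In C57 adult the first library was high for Ndufb2 (399 TPM), Ndufa4l2 (6.82 TPM), Cox7c (971 TPM), Atp5l (1204 TPM), Atp5j2 (877 TPM) and Uqcrfs1 (407 TPM) and low for Sdha (289 TPM), and the second was high for Uqcrc1 (246 TPM).

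For 2 members the change against C57 adult differed between Hap-I adult + WD and Hap-II adult + WD by the limma test of haplotype, mt-Nd3 by log2 -2.02 and mt-Co3 by log2 1.91, in 4 of 4 libraries each way. Both differences fell below the threshold once the chromosome 1 copies were summed with the genes.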

How the results depend on the processing

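TPM from libraries of unknown depth limit these results to shares of each library, so a change of scaling moves calls and signs. For Hap-I adult + WD against C57 adult, 37 members were called, and 71 under median-of-ratios scaling, 72 with array weights and 16 with a Y-linked covariate. For Hap-II adult + WD against C57 adult, 38 were called, and 65 with array weights and 18 with the covariate. For haplotype on WD, 2 were called; 0 were with no low filter, median-of-ratios scaling, copies summed or the Y-linked covariate, and 1 in the fit of all 24 libraries. With mitochondrial genes left out, 0 were called. For age on WD, 0 were called, and 5 with array weights and 3 with all 24 libraries.

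Leaving out 1 library gave 0 to 1 calls for age on WD, 0 to 1 for haplotype, 31 to 38 for Hap-I adult + WD and 17 to 47 for Hap-II adult + WD against C57 adult. The last count was 17 without Hap-II adult + WD replicate 3 and 23, 22 and 21 without C57 adult replicates 2, 3 and 4. It gave 0 for age in libraries labelled Hap-I aged and Hap-I adult, 64 to 69 and 69 to 77 for diet in adults and in aged mice, and 66 to 76 for libraries labelled Hap-I adult against C57 adult. The overall mitochondrial-to-nuclear ratio then ranged over 4.87 to 5.96 in Hap-I aged + WD, 5.27 to 5.88 in Hap-I adult + WD, 3.60 to 4.43 in Hap-II adult + WD, 4.78 to 6.63 in libraries labelled Hap-I aged, 5.40 to 7.88 in those labelled Hap-I adult and 2.67 to 3.22 in C57 adult.

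With copies summed, that ratio was 7.70 in Hap-I aged + WD, 7.65 in Hap-I adult + WD, 5.72 in Hap-II adult + WD, 9.03 in libraries labelled Hap-I aged and 5.12 in C57 adult. As a ratio of medians over members it was 41.0 in Hap-I aged + WD, 36.6 in Hap-I adult + WD, 31.4 in Hap-II adult + WD, 40.1 in libraries labelled Hap-I aged, 45.4 in those labelled Hap-I adult and 20.8 in C57 adult.

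Signs turned as follows, in log2. Median-of-ratios scaling gave Cox8a 0.334 and Sdhc 0.313 in Hap-I adult + WD against C57 adult. It gave Sdha 0.206, Cox8a 0.68, Ndufa10 0.714 and Ndufs1 0.764 for diet in adults, and Sdha 0.215, Cox7a2l 0.623 and Cox8a 0.646 in aged mice. Quantile normalization gave mt-Nd1 -0.038 in Hap-II adult + WD against C57 adult. For diet in adults it gave Ndufs1 0.193, mt-Nd1 -0.147, mt-Nd4 -0.116, mt-Nd6 -0.077, mt-Cytb -0.052 and mt-Co1 -0.195, and for aged mice mt-Nd1 -0.198, mt-Nd4 -0.045 and mt-Nd6 -0.075. The cause was not tested.

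Replicate numbers are shared by the titles of the groups on WD and of libraries labelled Hap-I adult. Same-numbered libraries deviated together with correlations of 0.06 to 0.47 for age, -0.03 to 0.53 for haplotype and -0.03 to 0.13 for diet in adults, and 3, 2 and 1 of 4 pairs were highest with their own number. Not every pair exceeded 0.1 and the labels name no shared animal or day, so the numbers were not taken to pair the samples. With the number as a replicate block, 1 member was called for age (mt-Co3), 2 for haplotype and 70 for diet in adults. No paired analysis was possible because no numbers are shared for the comparisons with C57 adult, for libraries labelled Hap-I aged and for diet in aged mice. Over all settings and named results, 4987 values kept direction and side of the threshold, 268 fell below it, 133 passed it, 271 moved and 19 reversed.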
